A study of Rattus norvegicus with 5 samples.

Results

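The genes described here act in DNA replication and the cell cycle. They were chosen as a list of 42 gene symbols in 4 roles: 16 replication genes, 12 genes of mitosis, 10 cyclins and cyclin-dependent kinases (CDKs), and 4 CDK inhibitors. On the array 36 of the 42 had at least 1 probe set, a group of short DNA probes for one transcript, annotated to their symbol alone, 47 probe sets in all, out of 10411 genes and 15866 probe sets. These were 14 replication genes, 10 of mitosis, 8 cyclins and CDKs, and 4 inhibitors. Gmnn, Bub1, Kif11, Ccna2 and Cdk2 were matched to no probe set, and Rrm2 only to one that it shared with Rrm2l1, so these 6 were not analysed as single genes. Where a gene had several probe sets, the brightest stands for it.

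RNA came from clones 5-3.14 and 5-3.19 (set 5-3), clones 1-1.2 and 1-1.16 (set 1-1), and the parental line INS-1, a rat insulinoma line that secretes insulin. Every clone was made from INS-1 and carries an FRT site, where Flp recombinase can insert a gene, and the tetracycline repressor, which holds such a gene silent until tetracycline is given. The labels of these 5 samples name no inserted gene and no tetracycline treatment, and they do not say what the sets 5-3 and 1-1 stand for. Clones of a set are called sisters by their names alone, since the labels do not say whether they share an origin. Each clone and the parental line had 1 array. Replicates are therefore separate clones, the p-values measure only the spread between these clones, and with 5 arrays every value is imprecise.

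A dividing cell first licenses its replication origins by loading the Mcm2 to Mcm7 helicase. Cyclin D with Cdk4, and then cyclin E with its kinase, inactivate the retinoblastoma protein and free E2F factors, which switch on genes for DNA synthesis. Genes of G2 and mitosis are known to be transcribed later, through the DREAM and MuvB-B-Myb complexes and NF-Y, and cyclin B with Cdk1 then drives mitosis. The inhibitors p21, p27, p57 and p18 block the kinases. Pancreatic beta cells divide rarely in adults, and insulinoma lines are kept because they divide.

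Promoter windows of 4 genes are shown, Mcm5 and Mcm6 of replication and Cks2 and Top2a of mitosis. Whether their motifs bear on differences between clones was not tested. A window is the 250 bases before 1 RefSeq transcript start of a gene on the rat build GRCr8, read 5′ to 3′ on the gene's own strand. Since other transcripts of a gene can start further upstream, 12 of the 31 windows used lay partly and 7 wholly inside the annotated span of their own gene. The 4 printed are among the 12 that lay outside it. Capitals mark matches, on either strand, to an E2F motif (TTTCCCGC, TTTCGCGC, TTTGCCGC or TTTGGCGC), to the CCAAT box, or to the cell cycle homology region CHR (TTTGAA or TTCGAA). Overlapping matches run together, as do E2F matches in Mcm5. The windows lie at chr19:13488563-13488812, plus strand for Mcm5, chr13:42404353-42404602, minus strand for Mcm6, chr17:13727520-13727769, minus strand for Cks2, and chr10:84473094-84473343, minus strand for Top2a.
Mcm5: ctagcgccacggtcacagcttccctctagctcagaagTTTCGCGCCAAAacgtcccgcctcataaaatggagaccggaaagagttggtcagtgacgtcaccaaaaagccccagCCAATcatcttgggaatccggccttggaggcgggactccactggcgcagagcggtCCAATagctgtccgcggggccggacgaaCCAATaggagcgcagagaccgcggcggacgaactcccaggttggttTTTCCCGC
Mcm6: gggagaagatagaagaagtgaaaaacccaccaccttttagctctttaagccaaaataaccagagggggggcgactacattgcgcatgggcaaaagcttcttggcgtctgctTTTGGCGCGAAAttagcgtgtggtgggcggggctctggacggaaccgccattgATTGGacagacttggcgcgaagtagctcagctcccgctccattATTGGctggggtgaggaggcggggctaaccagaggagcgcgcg
Cks2: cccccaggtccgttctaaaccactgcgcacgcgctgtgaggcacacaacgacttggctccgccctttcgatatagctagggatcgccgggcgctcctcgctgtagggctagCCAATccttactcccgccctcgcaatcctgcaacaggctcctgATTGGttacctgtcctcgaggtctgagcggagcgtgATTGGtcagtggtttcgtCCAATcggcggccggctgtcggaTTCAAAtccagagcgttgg
Top2a: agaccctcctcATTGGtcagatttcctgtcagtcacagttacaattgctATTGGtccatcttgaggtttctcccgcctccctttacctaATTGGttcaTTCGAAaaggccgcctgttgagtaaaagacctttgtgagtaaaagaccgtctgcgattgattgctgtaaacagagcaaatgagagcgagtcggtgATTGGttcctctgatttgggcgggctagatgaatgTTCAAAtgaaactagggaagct

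An E2F match lay in 6 of the 13 replication windows (Mcm2, Mcm5, Mcm6, Mcm7, Pola1 and Tyms), or 46.2%, against 1.81% of the windows of 27457 genes. It also lay in 1 of 9 mitosis windows (11.1%). A CCAAT box lay in 61.5% of replication and 77.8% of mitosis windows, against 34.3% of all windows. A CHR match lay in 6 of 9 mitosis windows, or 66.7%, against 17.3% of all windows, and ended 13 bases before the start in Cks2 and 16 in Top2a. A CCAAT box and a CHR match stood together in 5 of 9 mitosis windows (55.6%), in 2 of 13 replication windows and in 6.22% of all windows. Over the windows outside the gene's span, a count added after the data were seen, an E2F match lay in 2 of 6 replication windows against 1.32% of 19036. Those 2 are the Mcm5 and Mcm6 windows printed above. Likewise a CHR match lay in 3 of 4 mitosis windows against 18.9%. The matches describe letters only, and no binding was measured here.

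The first comparison sets the 4 clones against the line they came from. Most replication genes had a higher mean log2 signal in the clones, 13 of 14 with a median log2 difference of 0.33, against 51.0% of the 9520 probe sets tested and a median of 0.0071 over all of them. In the other roles the clones' mean was higher for 8 of 10 mitosis genes (median 0.11), for 4 of 8 cyclins and CDKs (median 0.08) and for 1 of 3 tested inhibitors (median −0.31). Without 1-1.2 the medians of mitosis and of cyclins and CDKs were 0.0587 and 0.0166, without 1-1.16 that of cyclins and CDKs was 0.0078 and that of the inhibitors −0.19, and without 5-3.19 that of mitosis was 0.17. No gene of the 35 tested passed limma's test with Benjamini-Hochberg adjustment over all probe sets. Their lowest adjusted p was 1.00, the share called over all probe sets was 0%, and the lowest adjusted p of any probe set was 0.887. An unadjusted p under 0.05 was reached by 2 of the 35 genes and by 349 of the 9520 probe sets. In a bulk culture, a higher share of cycling cells and more RNA per cell cannot be told apart.

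All 4 clones lay above the parental array for 12 of the 35 genes, where 18.4% of all probe sets did, and all 4 lay below it for 3 genes, where 19.7% did. The 12 were 7 replication genes (Mcm3, Mcm5, Mcm6, Pcna, Rfc4, Prim1 and Tk1), Aurkb and Mki67 of mitosis, Ccnd3, Ccnb2 and Cdkn1a. The 3 were Ccnd2, Cdkn1b and Cdkn2c. For those 7 of 14 replication genes the parental array was therefore the lowest of the 5, which restates the count above. Clone 1-1.16 was the highest for 7 of 14 replication genes, where it was for 25.2% of all probe sets. Beta cell markers of the same arrays ran the other way, with a lower clone mean for 11 of 13 and a median log2 difference of −0.39, and their part in the result was not tested.

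**Figure D1:**
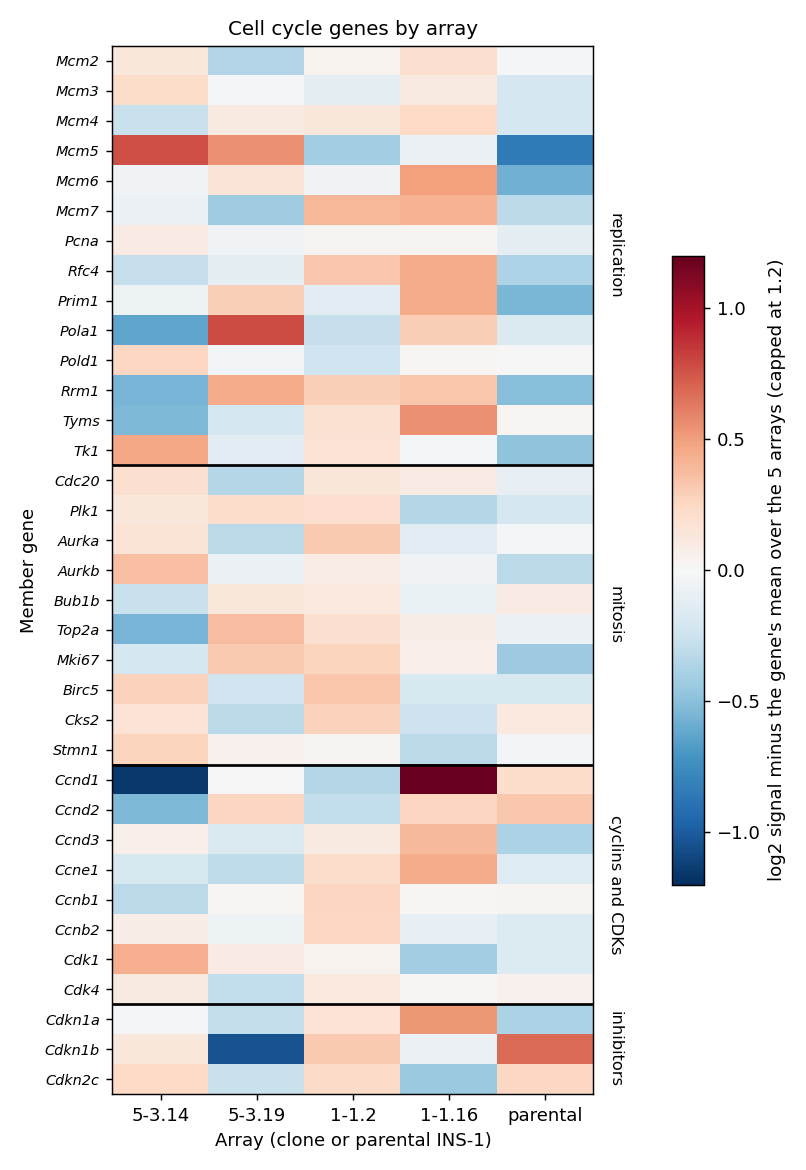
Each row is 1 of the 35 tested genes and each column 1 array. Colour gives the log2 signal minus that gene's mean over the 5 arrays, capped at 1.2, with red higher and blue lower. The parental column is mostly blue among the replication genes, and Ccnd1 runs from the cap in clone 1-1.16 to close to it in clone 5-3.14.

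Among the helicase genes, Mcm5 had signals of 2500.5 in 5-3.14, 2132.6 in 5-3.19, 1086.4 in 1-1.2 and 1381.6 in 1-1.16, against 800.4 in the parental line. The 4 clones all exceeded the parental array, and both 5-3 clones exceeded both 1-1 clones. The clones' log2 difference from parental was 1.05 (SE 0.47, limma unadjusted p = 0.0598), the largest of the 35 genes. Mcm5 lies on chromosome 19, whose tested probe sets had a median log2 difference of 0.39. Mcm6 had 4050.4, 4641, 4047.2 and 5855.9 in 5-3.14, 5-3.19, 1-1.2 and 1-1.16, against 2788.5 in parental, a log2 difference of 0.72 (SE 0.28, unadjusted p = 0.0373 in limma). Here clone 1-1.16 stood highest and the other three clones lay close together. Mcm7 had 5828.2, 4561.7, 8088.1 and 8172.1 in the clones in that order, against 4913.3 in parental. The 1-1 clones were above the other arrays for this gene, while the 5-3 clones lay on both sides of parental.

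The other helicase genes differed less. Mcm2, Mcm3 and Mcm4 had clone means of 2695 ± 424, 2417 ± 242 and 2439 ± 351 (SD, n = 4), against 2619.8, 2021.5 and 2005.5 in the parental line. Their log2 differences were 0.03, 0.25 and 0.27, each below its SE of 0.26 to 0.29. The 6 subunits of this one ring thus had clone differences of 0.03 to 1.05 on the log2 scale, with the clones' mean above parental in each.

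Prim1, the primase subunit that makes RNA primers, had 5131.7 in 5-3.14, 6533.1 in 5-3.19, 4907.9 in 1-1.2 and 7292.3 in 1-1.16, against 3648.1 in parental. All 4 clones were above the parental array, with a log2 difference of 0.69 (SE 0.28, unadjusted p = 0.0453 in limma). Rrm1, the large subunit of ribonucleotide reductase, which makes deoxynucleotides, had 1203.7, 2426.9, 2179.9 and 2244.3 in 5-3.14, 5-3.19, 1-1.2 and 1-1.16, against 1244.2 in parental. Clone 5-3.14 sat beside the parental array and the other three clones near each other above it, for a log2 difference of 0.64 (SE 0.41). Tk1, thymidine kinase, averaged 2695 ± 504 in the clones (SD, n = 4) and 1738.6 in parental, a log2 difference of 0.61 (SE 0.30), and its second probe set was also higher in all 4 clones.

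Pola1, the catalytic subunit of DNA polymerase alpha, had 503.2, 1377.1, 648.1 and 976.8 in 5-3.14, 5-3.19, 1-1.2 and 1-1.16, against 698.4 in parental. Its lowest and its highest array were the sister clones 5-3.14 and 5-3.19, 2.66-fold apart, so the clones' log2 difference of 0.22 was below its SE of 0.52. Tyms, thymidylate synthase, had 473.5, 600.7, 794.8 and 1031.5 in the clones in that order, against 711.7 in parental. Both 5-3 clones were below parental and both 1-1 clones above it, which left a log2 difference of −0.03 for the 4 clones. Pcna, the sliding clamp of the polymerases, varied least, 1.16-fold over the 5 arrays, with 14069 ± 555 in the clones (SD, n = 4) and 12673.3 in parental. Rfc4, a subunit of the clamp loader, averaged 2969 ± 705 in the clones and 2102.1 in parental (log2 difference 0.46, SE 0.34), and Pold1, the catalytic subunit of polymerase delta, 591 ± 85.9 and 585. The probe set shared by Rrm2, the small reductase subunit, and Rrm2l1 had 6561.5, 4773.4, 6702.7 and 5353.3 in 5-3.14, 5-3.19, 1-1.2 and 1-1.16, against 4856.5 in parental, and cannot be assigned to either.

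**Figure D2:**
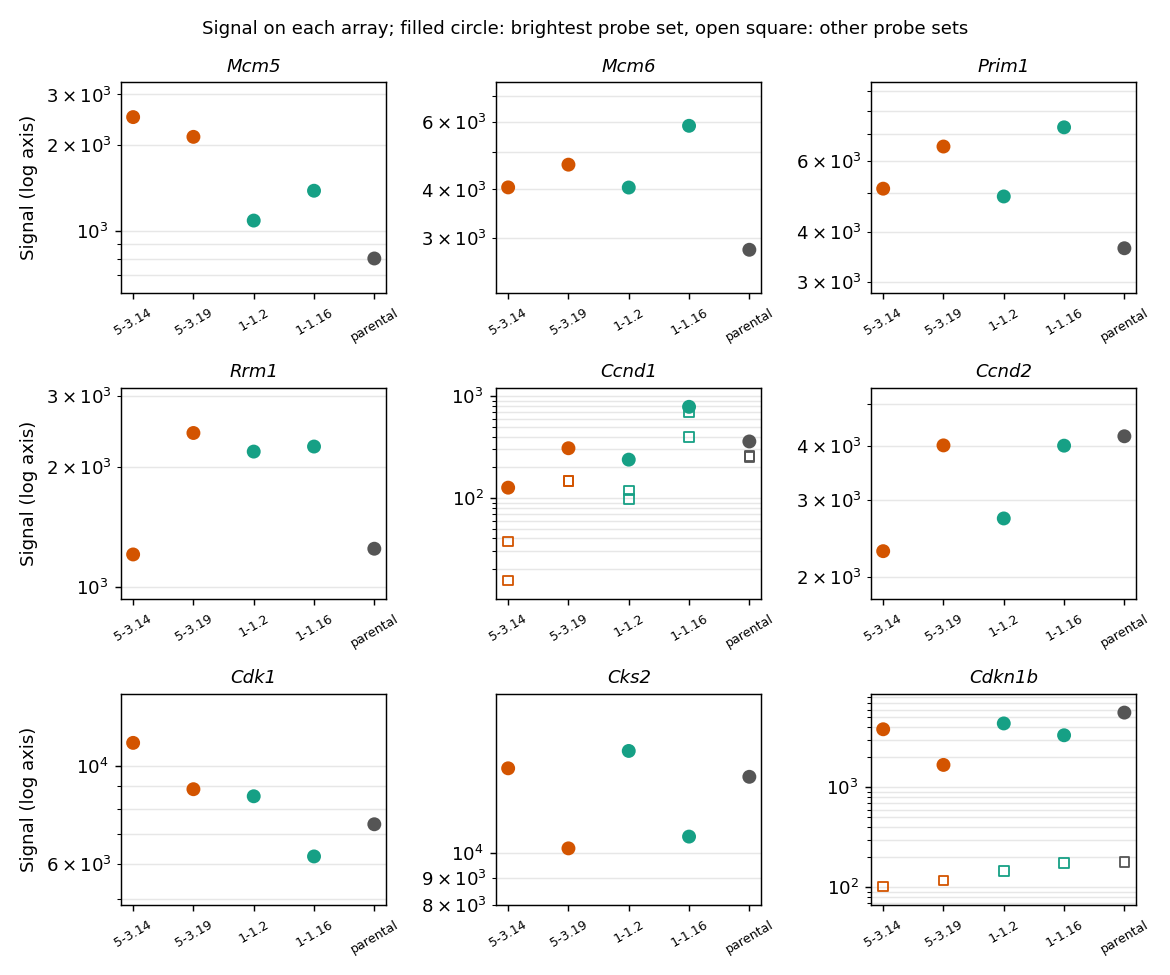
Signal on a log axis for 9 genes on the 5 arrays, with 5-3 clones in orange, 1-1 clones in green and the parental line in grey. Filled circles are the brightest probe set and open squares the gene's other probe sets. Mcm5, Mcm6 and Prim1 are lowest in the parental line, while Ccnd1, Ccnd2 and Cdkn1b split the sister clones of both sets.

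Genes of mitosis had smaller differences from parental, with the median of 0.11 given above. Mki67, which encodes the proliferation marker Ki-67, had 1001.6 in 5-3.14, 1453 in 5-3.19, 1409.6 in 1-1.2 and 1211.7 in 1-1.16, against 857.4 in parental, a log2 difference of 0.54 (SE 0.30). Aurkb, the kinase of the chromosomal passenger complex, had 3003.6, 2220.4, 2484.7 and 2266.4 in the clones in that order, against 1864.2 in parental, a log2 difference of 0.41 (SE 0.27). These were the 2 mitosis genes with all 4 clones above parental. The remaining 8 had clones on both sides of it. Among them, the kinase gene Plk1 had 2125, 2252.9, 2249.8 and 1536 in 5-3.14, 5-3.19, 1-1.2 and 1-1.16, against 1691.8 in parental, so that clone 1-1.16 alone was below parental.

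Birc5, which encodes survivin of the same passenger complex, had 2654.5, 1853, 2749.6 and 1914.6 in 5-3.14, 5-3.19, 1-1.2 and 1-1.16, against 1904.5 in parental. The arrays of 5-3.14 and 1-1.2 were high and close together, and below them lay 5-3.19, 1-1.16 and parental. Top2a, the topoisomerase that untangles sister chromatids, had 2096.1, 3993.1, 3530.5 and 3252.2 in the clones in that order, against 2933.5 in parental. Clone 5-3.14 alone was below parental, on both probe sets of the gene. The log2 differences of Plk1, Birc5 and Top2a were 0.25, 0.24 and 0.09, all below their SEs of 0.31 to 0.37.

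Cdc20, the activator of the anaphase-promoting complex, Aurka, the spindle pole kinase, and Stmn1, which destabilises microtubules, had clone means of 3727 ± 596, 1296 ± 259 and 7894 ± 1288 (SD, n = 4), against 3385.4, 1254.8 and 7602.7 in parental. The spindle checkpoint kinase gene Bub1b and the Cdk1 partner gene Cks2 had clone means below parental, 926 ± 122 and 12720 ± 2642, against 1004 and 13890 in parental. These 5 genes differed from parental by −0.15 to 0.12 on the log2 scale, less than their SEs of 0.25 to 0.32. Cdc20 had 5 probe sets, of which 4 had the higher mean in the clones.

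The D-type cyclins did not share a direction. Ccnd1 had 126.3 in 5-3.14, 308.3 in 5-3.19, 238.2 in 1-1.2 and 787.4 in 1-1.16, against 359.4 in parental. This was the widest range of the 35 genes at 5.46-fold, but its low end in 5-3.14 was under the signal of about 194 at the limit for testing. Clone 1-1.16 was the only one above parental, and all 3 probe sets of the gene ranked the 5 arrays in the same order, although 2 of them fell below the limit for testing. Ccnd2 had 2294.8, 4011, 2727.4 and 4005.3 in the clones in that order, against 4208.7 in parental. All 4 clones were below parental, 5-3.19 and 1-1.16 only slightly. Ccnd3 had 1483.5, 1261.1, 1538.1 and 1867.1 in the clones, against 1088.6 in parental, so all 4 clones were above it. Their log2 differences were −0.26 (SE 0.80) for Ccnd1, −0.41 (SE 0.37) for Ccnd2 and 0.48 (SE 0.30) for Ccnd3.

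Cdk1, the kinase that starts mitosis, had 11254.2 in 5-3.14, 8849.1 in 5-3.19, 8530.2 in 1-1.2 and 6242.3 in 1-1.16, against 7376.8 in parental. Clone 1-1.16 alone was below parental, and the log2 difference of the 4 clones was 0.21 (SE 0.31). Its mitotic cyclin partners Ccnb1 and Ccnb2 averaged 5785 ± 939 and 2321 ± 260 in the clones (SD, n = 4), against 5879.2 and 2000.1 in parental. Both probe sets of Ccnb1 put clone 1-1.2 highest and 5-3.14 lowest, but the second gave a clone mean above parental and the first below it. Cdk4, the partner of the D-type cyclins, averaged 5844 ± 739 in the clones and 6056.8 in parental (log2 difference −0.06, SE 0.24).

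Of the inhibitors, Cdkn1b, which encodes p27, had 3810.6 in 5-3.14, 1677.1 in 5-3.19, 4357.5 in 1-1.2 and 3319 in 1-1.16, against 5592.4 in parental. All 4 clones were below the parental array, clone 5-3.19 by the most at 3.30-fold, and the log2 difference was −0.85 (SE 0.50, unadjusted p = 0.132 in limma). The second probe set of Cdkn1b, below the limit for testing at 101.6, 116.8, 146.2 and 175.2 in the clones in that order and 180.4 in parental, was also below parental in all 4 clones but ranked 5-3.14 lowest. Cdkn1a, which encodes the p53 target p21, had 783.5, 650.5, 905.2 and 1151.8 in the clones, against 609.6 in parental. All 4 clones were above it, on both probe sets, with a log2 difference of 0.47 (SE 0.35). Cdkn2c, which encodes the Cdk4 inhibitor p18, had 4573.9, 3208.6, 4542.5 and 2837 in the clones, against 4614.2 in parental, so that 5-3.14 and 1-1.2 read close to parental and their sisters lower. Cdkn1c, which encodes p57, read 8.7 to 43.3 on the 5 arrays, below the signal of about 194 required for testing.

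**Figure D3:**
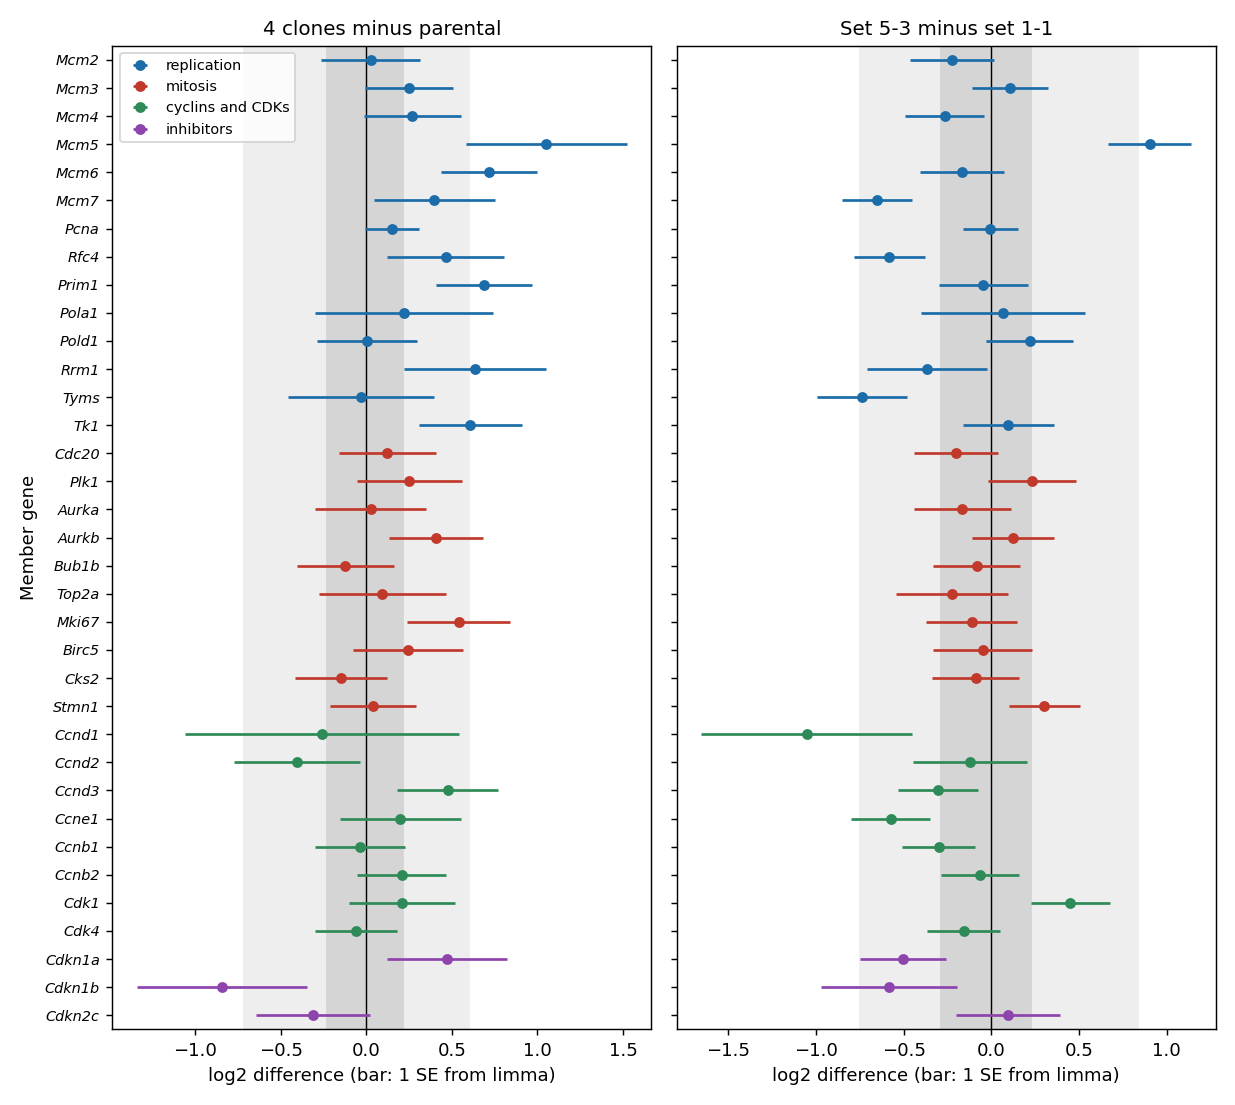
Fitted log2 differences of the 35 genes with 1 SE from limma, for the 4 clones minus parental (left) and set 5-3 minus set 1-1 (right), coloured by role. The dark and light grey bands hold the middle 50% and 90% of all 9520 probe sets. On the left the replication genes lie mostly to the right of 0, with Mcm5 at 1.05 outermost. On the right Mcm5 at 0.90 and Ccnd1 at −1.05 are outermost.

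For each clone alone, with no test, the replication genes had a median log2 difference from parental of 0.23 in 5-3.14, 0.29 in 5-3.19, 0.39 in 1-1.2 and 0.50 in 1-1.16, where all 14 were higher. The mitosis genes had medians of 0.25, 0.06, 0.30 and −0.06 in the same clones. The clone with the highest replication median was thus the one whose mitosis median was lowest. At a limit of 1.5-fold, clone 5-3.14 had 4 of the 35 genes above parental and 2 below, where 10.4% and 13.8% of all probe sets were. Clone 5-3.19 had 6 above and 1 below, where 8.94% and 8.58% were, and clone 1-1.2 had 5 and 1, where 6.91% and 10.6% were. Clone 1-1.16 had 10 above and 2 below, where 12.5% and 11.9% were. The 10 held 6 replication genes and no mitosis gene.

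The second comparison sets clones 5-3 against clones 1-1. Both 5-3 clones lay above both 1-1 clones for 3 of the 35 genes (Mcm5, Stmn1 and Cdk1), where 22.1% of all probe sets did, and below them for 8, where 24.5% did. The 8 were Mcm4, Mcm7, Rfc4, Tyms, Ccnd3, Ccne1, Ccnb1 and Cdkn1a. limma called none of the 35 after Benjamini-Hochberg adjustment, against 40 of the 9520 probe sets, or 0.420%. Their lowest adjusted p was 0.165, for Mcm5, and 5 of the 35 had an unadjusted p under 0.05, as 1413 of all probe sets did. Per role the 5-3 mean was lower for 9 of 14 replication genes, 7 of 10 mitosis genes, 7 of 8 cyclins and CDKs, and 2 of 3 inhibitors, against 54.2% of all probe sets. The medians were −0.11, −0.09, −0.23 and −0.50 on the log2 scale, against −0.0385 over all. Single clones decided 2 of these: without 5-3.19 the medians of mitosis and of the inhibitors were 0.12 and 0.0028, and without 1-1.2 that of mitosis was 0.12.

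Within replication the widest separations ran in opposite directions. Mcm5, with the values given above, read higher in 5-3 by 0.90 on the log2 scale (SE 0.24, adjusted p = 0.165), where the median over chromosome 19 was 0.74. Its ring partner Mcm7 differed by −0.65 (SE 0.20, adjusted p = 0.208 in limma), with 5828.2 and 4561.7 in the 5-3 clones against 8088.1 and 8172.1 in the 1-1 clones. Tyms differed by −0.74 (SE 0.26, adjusted p = 0.247). Rfc4 had 2243.8 and 2505.2 in the 5-3 clones, against 3413.6 and 3712 in the 1-1 clones, a log2 difference of −0.58 (SE 0.20, adjusted p = 0.249). All 4 clones of Rfc4 were above the 2102.1 of parental, the 5-3 clones by less. Tk1 was overlapping between the sets, and its 2 probe sets gave opposite directions.

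Ccne1, the G1/S cyclin E1, had 776.6 and 717.9 in the 5-3 clones, against 1034.8 and 1216.4 in the 1-1 clones and 795.2 in parental. Its log2 difference was −0.57 (SE 0.23, adjusted p = 0.302 in limma), with the 5-3 clones near parental and the 1-1 clones above it. Ccnd1 differed by −1.05, but with an SE of 0.60 and overlapping sets (adjusted p = 0.483). Cdk1 read higher in both 5-3 clones, with a log2 difference of 0.45 (SE 0.23, adjusted p = 0.432). Stmn1 had 9367.4 and 8033.8 in the 5-3 clones, against 7949.7 and 6225.2 in the 1-1 clones, a log2 difference of 0.30 (SE 0.20), and the sets nearly met. Cdkn1a differed by −0.50 (SE 0.25). The sets overlapped for Cdkn1b, at −0.58 (SE 0.39), and without 5-3.19 its difference was 0.0028. In mitosis the differences of Plk1, Top2a and Cdc20, at 0.23, −0.23 and −0.20, were below their SEs of 0.24 to 0.32, and 3 of the 5 probe sets of Cdc20 had the lower mean in 5-3.

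Sister clones of a set also differed from each other. Each sister comparison is 1 array against 1, with no test, and since sisters have no order its direction is arbitrary. Clone 1-1.16 read lower than 1-1.2 for all 10 mitosis genes, where 44.5% of all probe sets were lower, and higher for 12 of 14 replication genes, where 55.5% were. The mitosis differences were small, −0.54 to −0.05 on the log2 scale with a median of −0.28, and the replication differences ran from −0.20 to 0.58. The pair Cks2 (10740.1 in 1-1.16 against 15524.7 in 1-1.2) and Birc5 (1914.6 against 2749.6) show it, as do Cdk1, Ccnb1 and Ccnb2, the mitotic cyclins and their kinase, with log2 differences of −0.45, −0.23 and −0.34. The smallest mitosis difference, −0.05, was that of Cdc20. Of its 5 probe sets 4 were lower in 1-1.16, but its second brightest was higher, with 2686.2 against 2552.5 in 1-1.2. At 1.5-fold only 1 gene of the 35 was higher in 1-1.16 (Ccnd1), where 7.31% of probe sets were, and 1 lower (Cdkn2c), where 5.01% were.

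**Figure D4:**
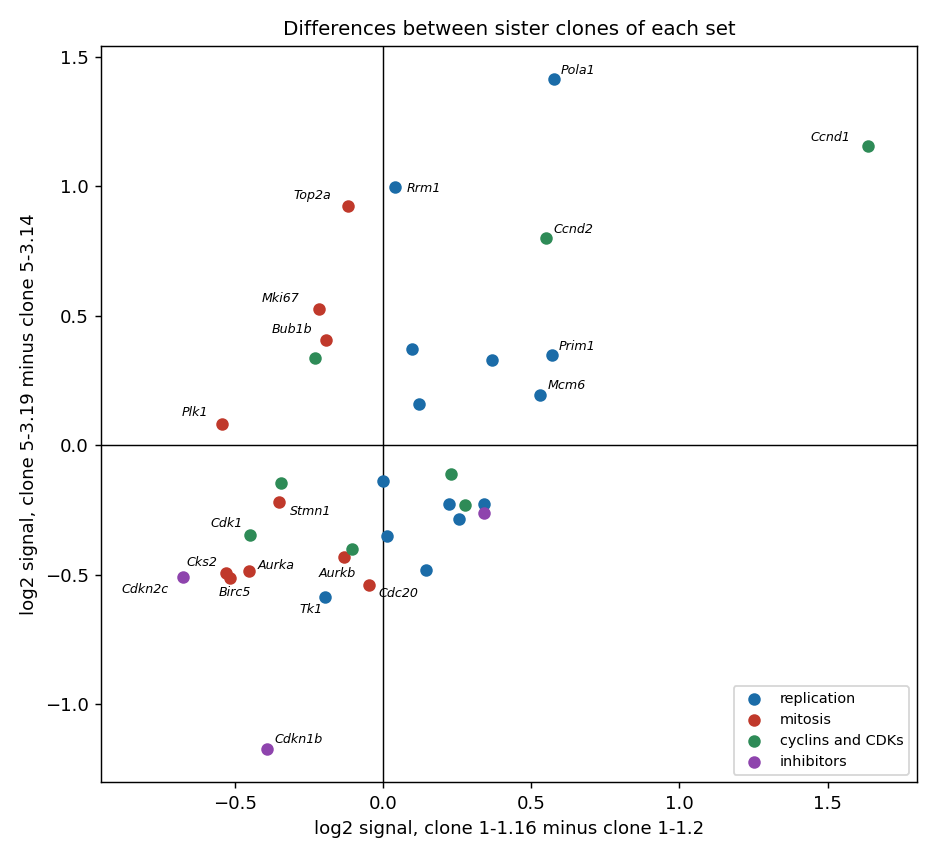
Log2 difference of clone 1-1.16 minus 1-1.2 (horizontal axis) and of clone 5-3.19 minus 5-3.14 (vertical axis) for the 35 tested genes, coloured by role. All 10 mitosis genes lie left of 0, with 6 of them below 0 and Top2a, Mki67, Bub1b and Plk1 above it. Ccnd1 and Ccnd2 lie up and to the right.

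In the other set, clone 5-3.19 read lower than 5-3.14 for 6 of 10 mitosis genes, where 52.1% of all probe sets were lower, and for 7 of 14 replication genes. Here the mitosis genes divided. Top2a, Mki67 and Bub1b were higher in 5-3.19, with log2 differences of 0.92, 0.53 and 0.41, whereas Cdc20, Birc5, Cks2 and Aurka differed by −0.54, −0.51, −0.50 and −0.49. Top2a and Cks2 went opposite ways. CCAAT and CHR matches lie in the windows of both, and their part in these differences was not tested. At 1.5-fold, 5 genes were higher in 5-3.19 (Pola1, Rrm1, Top2a, Ccnd1 and Ccnd2), where 13.5% of probe sets were, and 2 lower (Tk1 and Cdkn1b), where 7.52% were.

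Some genes split both pairs of sisters. Ccnd1 was higher in 1-1.16 than in 1-1.2 by 1.64 and higher in 5-3.19 than in 5-3.14 by 1.16 on the log2 scale, and Ccnd2 by 0.55 and 0.80. Cdkn2c differed by −0.68 and −0.51, and Cdkn1b by −0.39 and −1.17 on its brightest probe set. The dim probe set of Cdkn1b ran the other way in both sets, and in set 5-3 the second probe set of Cdkn1a ran opposite to its brightest. The 2 clones with more Ccnd1 and Ccnd2 signal had less Cdkn2c signal than their sisters, over 4 arrays. All 10 mitosis genes were lower in 1-1.16 than in 1-1.2, so the 6 of 10 lower in both pairs only restate the count of set 5-3. There 52.1% of all probe sets were lower.

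Beyond the 36, other genes of the same machinery were read from lists of replication, mitosis, G1 control, p53 targets and growth arrest, and DNA damage checkpoint genes. None of their tested members was called in the clones against parental. Of the other replication genes 25 of 33 had a higher clone mean (median log2 difference 0.20), and of the other mitosis genes 27 of 38 (median 0.06). Over all probe sets 51.0% had one. The histone chaperone gene Asf1b had 1693.5, 1231.4, 683.5 and 689.4 in 5-3.14, 5-3.19, 1-1.2 and 1-1.16, against 466.2 in parental (log2 difference 1.06, SE 0.53). Rnaseh2a, a subunit of the enzyme that removes RNA from DNA, had 2748.1, 2354, 1189.4 and 1041.1, against 969.1 (log2 difference 0.78, SE 0.56). Both had the 5-3 clones far above the others, as Mcm5 did. Dck and Orc4 differed by −0.34 and −0.25 (SE 0.32 and 0.29). Among mitosis genes Smc4 differed by 0.65 (SE 0.31), and Anp32e and Cdc25b by −0.31 and −0.24 (SE 0.27 and 0.29). Smc4 read 129.6 in parental, under the signal of about 194 at the limit for testing, and passed that limit only through the clones. Cenpt differed by 0.53, below its SE of 0.62, with 1-1.16 at 154.2 against 200.9 in parental.

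Of the G1 regulators 16 of 25 had a higher clone mean, where 51.0% of all probe sets did. Mycn, a Myc family transcription factor gene, had 142, 188.2, 142.5 and 158.1 in 5-3.14, 5-3.19, 1-1.2 and 1-1.16, against 460.5 in parental, a log2 difference of −1.43 (SE 0.33, adjusted p = 1.00 in limma). All 4 clones lay together below parental and under the signal of about 194 at the limit for testing. Mycn thus passed that limit only through the parental array. Wee1, which restrains Cdk1, differed by −0.54 (SE 0.27), E2f4, a DREAM subunit, by 0.62 (SE 0.39) and Rbx1, a ubiquitin ligase subunit, by 0.58 (SE 0.24). Of the p53 target and growth arrest genes 9 of 19 had a higher clone mean. Gadd45b differed by 1.28, Phlda3 by 1.22, Mxd4 by −1.32 and Sesn1 by −1.26 (SE 0.49 to 1.05). Gadd45b read 168.9 in parental, under the limit for testing, and passed that limit only through the clones, with 1-1.16 highest at 1108.1. Mxd4 and Sesn1 read 125.6 and 141.4 in 1-1.16, also under that limit. Of the checkpoint genes 8 of 11 had a higher clone mean, with Nbn at 0.62 and H2ax at 0.44 (SE 0.42 and 0.34). Rad51c at −0.17 and Xrcc1 at −0.12 were below their SEs of 0.29 and 0.26.

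Between the sets, 24 of 33 other replication genes and 21 of 38 other mitosis genes had the lower mean in 5-3. The mitosis share of 55.3% was near the 54.2% of all probe sets. None of the tested members of these lists was called. Sesn1, a p53 and FoxO target, had 1025.5 and 1182.7 in the 5-3 clones, against 287.8 and 141.4 in the 1-1 clones and 1181 in parental, a log2 difference of 2.32 (SE 0.34, adjusted p = 0.0533 in limma, 0.00962 to 0.0792 over the alternatives, of which 5 passed). The 5-3 clones sat at the parental level and both 1-1 clones far below it. Ccng2, cyclin G2, which is linked to cell cycle arrest, was also higher in 5-3, with 1650 and 1782.4 against 834.6 and 446.7, and 2125.5 in parental (log2 difference 1.46, SE 0.32, adjusted p = 0.125 in limma). So was Rbl2, which encodes the retinoblastoma relative p130, with 830.5 and 1656.8 against 381.9 and 452.9 (log2 difference 1.45, SE 0.35, adjusted p = 0.148 in limma). Rbl2 read 675.9 in parental, so both 5-3 clones lay above parental and both 1-1 clones below it.

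Rnaseh2a and Asf1b were separated by 1.18 and 1.05 on the log2 scale (adjusted p = 0.0902 and 0.141 in limma), Cenpt by 1.16, Chek2 by 0.84, E2f4 by 0.68, Bard1 by 0.47 and Ncapd2 by 0.39. Negative differences, with SEs of 0.23 to 0.45, were found for Pold2, the partner subunit of Pold1 (−1.14), Myc (−1.13), Gadd45g (−1.0021), Ung (−0.82), Mdm2 (−0.78), Ccnh (−0.54) and Chek1 (−0.48). For Hus1 (−0.83), Hmmr (−0.72) and Kif20a (−0.47) the sets overlapped, with SEs of 0.31 to 0.44. Myc had 744.9 and 601.1 in the 5-3 clones, against 906.5 and 2437.6 in the 1-1 clones, so the highest array was 1-1.16, as for Ccnd1.

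For some genes, mainly those of chromosome 19, these differences went with where the gene lies. The chromosomes were looked at after the values were seen, by the RefSeq gene table of GRCr8. Mcm5, Asf1b, Rnaseh2a, Cenpt, E2f4, Rbl2 and the listed origin genes Orc6 and Gins3 are all on chromosome 19, and all 10 tested probe sets of these 8 genes were higher in both 5-3 clones than in both 1-1 clones. So were 183 of the 228 other tested probe sets of that chromosome, and 81.1% of its probe sets in all, against the 22.1% of the whole array. This was the highest share of 21 chromosomes, with a median log2 difference of 0.74 between the sets and of 0.39 for the clones against parental. Mcm5, at 0.90 and 1.05, lay above both medians. Chromosome 20, with Cdk1 and Cdkn1a, came next at 57.9% and a median of 0.40 between the sets, which is near the 0.45 of Cdk1 and opposite in sign to the −0.50 of Cdkn1a. Chromosome 12, with Mcm7, had the lowest share at 7.22% and a median of −0.27. On chromosome 14, with a median of −0.17, Ccng2 and Pold2 went opposite ways, at 1.46 and −1.14. The part of these chromosome medians in the differences of single genes was not tested.

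In set 1-1, 26 of 38 other mitosis genes were lower in 1-1.16 than in 1-1.2, where 44.5% of all probe sets were. Of the other replication genes 24 of 33 were higher, where 55.5% of all probe sets were. These genes are not among the 36, but they were read on the same arrays, so they are no further replicates. The beta cell markers of the same arrays differed as well. Of 13 markers, all above the limit for testing, 11 were lower in 1-1.16 than in 1-1.2, with a median log2 difference of −0.68, and their summed signal was 102845 in 1-1.16 and 165220 in 1-1.2, against 166961 in parental. Of 16 markers of other cell types 15 were below the limit for testing. Glucagon (Gcg) was the exception, with 20549.5, 24433.9, 2063.6 and 17772.1 in 5-3.14, 5-3.19, 1-1.2 and 1-1.16, against 6874.5 in parental. Poly(A) control RNAs, added before labelling, read 1.37-fold (phe) to 3.84-fold (lys) brighter on the parental array than in the clones. The part of these differences in the results above was not tested.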

How the data were processed

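Total RNA of 4 INS-1 clones and of parental INS-1 was read on single-colour rat expression arrays. The authors deposited a linear intensity for each probe set on each array. Software and background correction: not given in the sources used here. On every array the trimmed mean without the outer 2% was 1000.24 to 1000.28, and the signals were used as deposited. Of 15923 probe sets, 57 controls were left out. Gene names came from the platform table, with 12783 probe sets on 1 symbol, 312 on several and 2771 on none.

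Values were taken as log2(signal + 21.8), the offset being the 10th percentile of positive signals, so differences of dim genes are understated. The 9520 probe sets at or above the 40th percentile of mean level (a signal near 194) were tested with limma 3.58.1 in R 4.3.3, with an intensity trend and Benjamini-Hochberg adjustment at 0.05. The 4 clones against 1 parental array left 3 residual degrees of freedom and assume that parental varies like the clones. The sets, 2 clones each, were compared in a fit with 3 groups, with 2 degrees of freedom. The steps were tested on simulated data. Genes were given in every array if among the 4 largest differences or ranges of their role, and other lists gave 2 genes each way. The members and lists were chosen with earlier results of these data known. Alternatives covered scaling, offset, filter, trend, probe set choice, fold limit and each clone left out.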

Additional observations from a re-analysis of the deposited data

Results flagged for a closer look

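Among the 4 clones, 1 stood apart from the others for 3 of 35 genes on the log2 scale. The gap from that clone to its nearest neighbour was a larger share of the whole range than Dixon's critical value for 4 values. The 3 genes were Rrm1, where clone 5-3.14 was low (0.846 of the range), Cdc20, where clone 5-3.19 was low (0.834), and Plk1, where clone 1-1.16 was low (0.847). A different clone stood apart each time. On the linear signals the share of each of these genes was smaller and lay below the critical value, so these flags depend on the scale. By chance about 5% of such groups are flagged, and 35 genes were examined.

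For Tyms and Ccne1 both 5-3 clones lay below parental and both 1-1 clones above it. The log2 difference of set 5-3 from set 1-1 was −0.74 for Tyms and −0.57 for Ccne1, with adjusted p = 0.247 and 0.302 in limma, so neither passed the test.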

How the results depend on the processing

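No gene of the 35 was called under any alternative run; their lowest adjusted p in limma was 0.891 for the clones against parental and 0.0708 between the sets. The count of probe sets called between the sets, 40 as reported, was 70 with each array centred on its median, 10 with no filter, 12 with the filter at the 60th percentile, and 50 to 224 with 1 clone left out, where 221 and 224 came without 5-3.14 and without 5-3.19. For the clones against parental it was 0 under every alternative. With 1 clone left out, the set 5-3 minus set 1-1 medians ranged from −0.31 to −0.0040 for replication, −0.22 to 0.12 for mitosis, −0.33 to −0.22 for cyclins and CDKs, and −0.63 to 0.0028 for inhibitors. Of 300 recomputed member values 7 changed sign, all with a clone left out. Those ranges were −0.71 to 0.11 for Ccnd1 in the clones against parental, and, between the sets, −0.69 to 0.24 for Top2a, −0.24 to 0.43 for Cdkn2c, −0.47 to 0.0665 for Cdc20, −1.17 to 0.0028 for Cdkn1b and −0.0398 to 0.50 for Plk1. At a limit of 2-fold, 2, 2, 0 and 2 of the 35 genes differed from parental in 5-3.14, 5-3.19, 1-1.2 and 1-1.16, against 6, 7, 6 and 12 at 1.5-fold. Alternatives added after the data were seen kept the counts of direction close: 11 to 14 of 14 replication genes and 6 to 8 of 10 mitosis genes had a higher mean in the clones, and under the scalings, offsets and probe set rules tried 10 of 10 mitosis genes were lower and 10 to 13 of 14 replication genes higher in 1-1.16 than in 1-1.2. Of 400 recomputed values of the other named genes none changed sign and 9 passed the threshold, for Sesn1, Rbl2, Gadd45g, Rnaseh2a and Hmmr between the sets. No paired analysis was possible because the clone numbers pair nothing between the sets. Signals had no detection calls, and whether a dim gene exceeded background is unknown.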
